A study of Mus musculus with 12 samples.

Results

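Collagens and the structural proteins that assemble with them form the fibres and sheets of the extracellular matrix that fibroblasts secrete. The 43 genes described here encode chains of fibril-forming, fibril-associated, network and microfibrillar collagens, laminin chains with nidogen and perlecan, elastic fibre proteins, lysyl oxidases, fibronectin with the matricellular proteins, and small leucine-rich proteoglycans with versican. They were chosen by name, as the collagen and structural matrix genes of a fibroblast, from the 49671 genes counted in each library, and all 43 passed the filter on low counts that left 18668 genes for testing. The choice was made with earlier results of these data known. The cells were NIH 3T3, a mouse fibroblast line, transfected with a control siRNA or with an siRNA against Lap2 (the product of Tmpo, a protein of the nuclear lamina and nucleoplasm). The siRNA targets all Lap2 isoforms. Each siRNA was combined with serum-starved cells kept in 0.3% FBS and with cells stimulated with 15% FBS for 45 min, which gave 4 groups of 3 libraries. A single Lap2 siRNA sequence was used, so that an effect of this oligonucleotide on other transcripts and an effect of Lap2 depletion cannot be told apart. The sources used here call the libraries triplicates without saying what they share, so the p-values measure the spread between these samples, which may be technical.

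Fibrillar collagens are built from 3 chains that fold together in the endoplasmic reticulum, are trimmed outside the cell and line up into fibrils, which lysyl oxidases then cross-link. Elastic fibres form when elastin is deposited on a scaffold of fibrillin microfibrils with the help of fibulins. Small leucine-rich proteoglycans such as decorin bind collagen and set the spacing of its fibrils, and fibronectin gives cells an anchorage on which new collagen is laid down.

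Total counts ran from 18026298 to 26265253 per library. Tmpo, the targeted gene, was first checked as a control of the labels. Its normalized counts (counts scaled to a common library size) in 0.3% FBS were 2775, 2805 and 2885 in control cells and 982, 1176 and 1093 in Lap2-depleted cells, and it fell by 61.6% (log2FC -1.38 ± 0.077, adjusted p = 8.7e-16, edgeR quasi-likelihood test). In 15% FBS the control cells had 3264, 3243 and 3019 and the Lap2-depleted cells 767, 745 and 607 (log2FC -2.17 ± 0.08, adjusted p = 3.8e-19). The labelled cell type was checked against its markers. All 6 fibroblast markers were expressed, led by Vim at 85969 and Pdgfra at 31653 normalized counts in starved control cells, and their summed level was 146891 to 154244 in those libraries against 101903 to 103116 in starved Lap2-depleted cells. The 3 skeletal muscle markers had no count in any library, and all 4 adipocyte and all 4 endothelial markers stayed under 20 counts in every library, as did 3 of 4 smooth muscle, 3 of 4 osteoblast, 3 of 4 epithelial, 3 of 4 immune and 2 of 4 chondrocyte markers. In starved cells the summed smooth muscle markers were 1766 to 1843 with control siRNA against 1306 to 1481 with Lap2 siRNA, and the summed chondrocyte markers 4029 to 4443 against 5259 to 5619.5. Members of a list did not always share the direction of its sum. Of the 2 chondrocyte markers tested, Sox9 was called higher and Col2a1 lower in starved cells (log2FC of Col2a1 -0.85 ± 0.28, adjusted p = 0.016). Of the smooth muscle markers only Smtn was called, as lower, and of the fibroblast markers 4 were called lower and S100a4 higher. The part of these shifts in the results on the matrix genes was not tested.

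The matrix genes made up a large part of the RNA of these cells. They took 6.58 to 6.77% of all counts in starved control cells and 6.00 to 6.51% in stimulated control cells. With Lap2 siRNA they took 4.17 to 5.05% in 0.3% FBS and 4.46 to 4.95% in 15% FBS, so that neither range of Lap2-depleted cells overlapped the range of either control group. In bulk samples such as these, fewer cells of a type and less RNA per cell cannot be told apart. Levels between genes were compared per length, as TPM (counts per base of exon, scaled to the same sum in each library). Exon length was joined over all annotated transcripts of a gene, so the order of genes on the TPM scale depends on it. On this scale Col1a1, Col3a1, Col6a1 and Col1a2 were the 4 highest members in starved control cells, at 3921 ± 232, 3558 ± 123, 2928 ± 70.5 and 2593 ± 85.1 TPM (mean ± SD, n = 3), followed by Fn1 at 2122 ± 117. Sparc and Bgn, at 1476 ± 29.9 and 1434 ± 74.1, did not differ beyond their spread, nor did Col6a2, Postn and Lox, at 1247 ± 34.2, 1229 ± 111 and 1219 ± 93.3. Eln, Col12a1, Mfap5, Col18a1, Col8a1, Fmod, Col11a1 and Tnn were each below Col15a1 at 41.5 ± 3.16 TPM, and Fbln1, Mfap2 and Loxl2 were under 1 TPM.

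**Figure D1:**
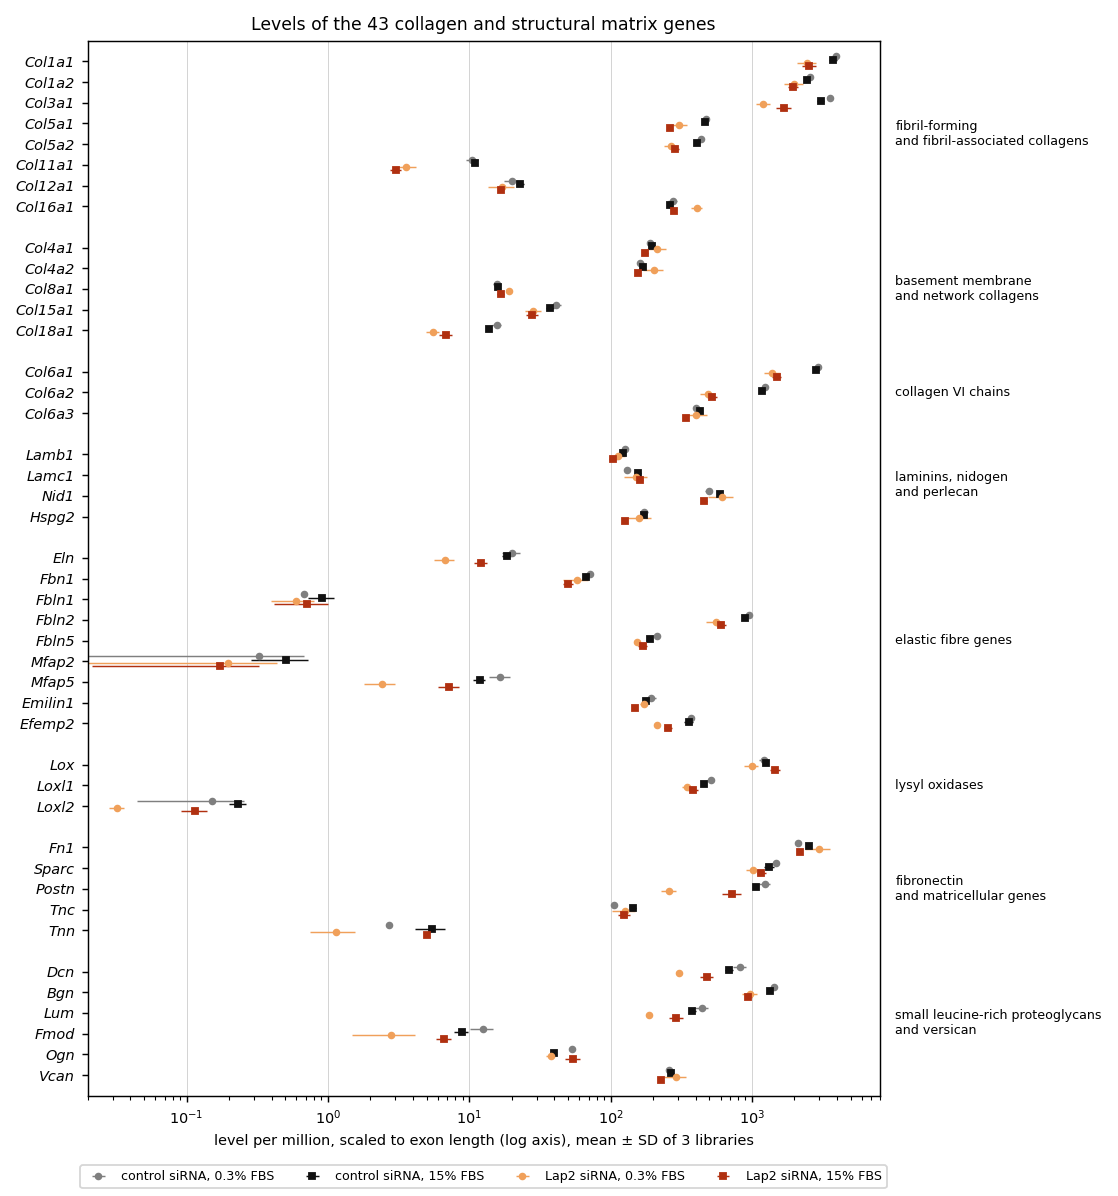
Level per length of each of the 43 genes, in TPM (level per exon length) on a log axis, as the mean ± SD of 3 libraries for each siRNA and serum condition. The levels span from below 1 TPM for Fbln1, Mfap2 and Loxl2 to 3921 TPM for Col1a1 in starved control cells, and the points of starved Lap2-depleted cells lie to the left of the control points for most genes.

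Depletion of Lap2 was accompanied by lower levels of most of these genes. In 0.3% FBS, 30 of the 43 fell, 5 rose and 8 did not pass the test at an adjusted p of 0.05, while of all 18668 genes tested 18.6% were called lower and 17.8% higher. In 15% FBS, 31 fell, 2 rose and 10 did not pass the test, beside 12.1% of all genes called lower and 11.4% called higher. Because the 43 genes were chosen with earlier results of these data known, their counts beside these shares are a description only. The median log2FC of the 43 genes was -0.65 in 0.3% FBS and -0.44 in 15% FBS, against 0.01 and 0.02 over all genes tested. In 30 of the 43 genes every starved Lap2-depleted library lay below every starved control library, as for 22.1% of all genes, and in 36 the same held in 15% FBS, as for 18.5% of all genes. Altogether 26 genes fell in both serum conditions, 2 fell in 0.3% FBS and were not called in 15% FBS (Tnn and Fmod), and 3 were called lower in 15% FBS alone (Col6a3, Tnc and Vcan). A log2FC of -1 or below was reached by 12 of the called genes in 0.3% FBS and by 3 in 15% FBS (Col11a1, Col18a1 and Col6a2). The shares of all genes that met these joint and size rules were not counted. The share lower in both conditions cannot exceed the 12.1% of all genes called lower in 15% FBS. The count of 5 higher genes in 0.3% FBS depended on single libraries and ran from 2 to 9 as each library was left out, with 9 without Lap2 siRNA replicate 1 in 0.3% FBS, 2 without control siRNA replicate 3 in 0.3% FBS, and 3 without Lap2 siRNA replicate 2 or 3 in 0.3% FBS. The count of 2 higher genes in 15% FBS became 1 without control siRNA replicate 1 or 2, or without Lap2 siRNA replicate 1 or 2, in 15% FBS.

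**Figure D2:**
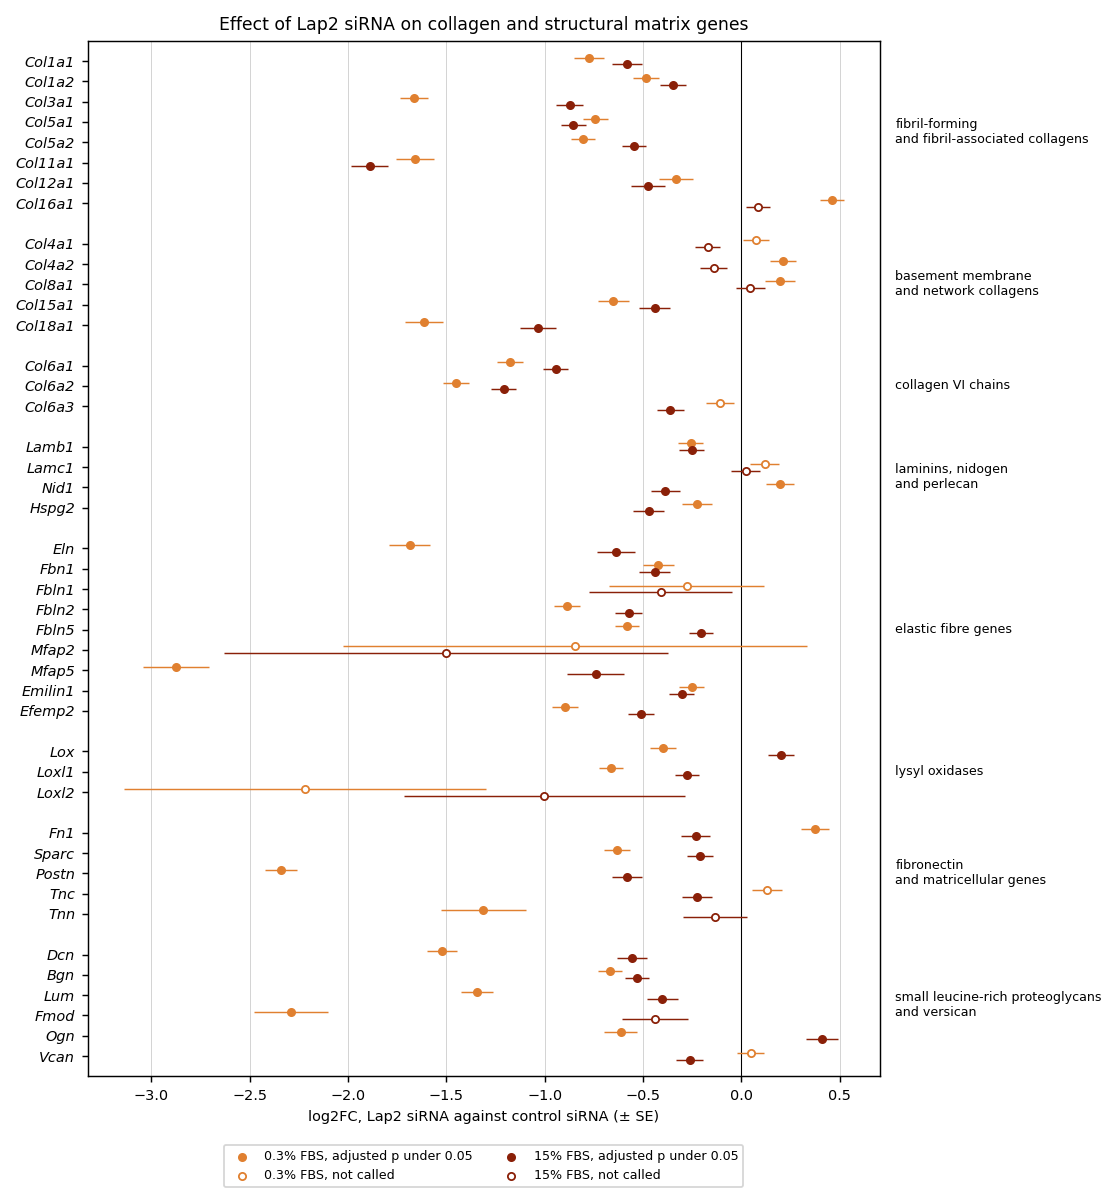
log2FC of Lap2 siRNA against control siRNA (± SE, from 3 libraries a group) for each of the 43 genes, in 0.3% FBS (orange) and 15% FBS (dark red). Filled points have an adjusted p under 0.05, and 30 of them in 0.3% FBS and 31 in 15% FBS lie to the left of 0.

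Both chains of collagen I, the main collagen of connective tissue, were lower. Col1a1 (chr11:94936224-94953042, mm10) had 167962, 156555 and 149449 normalized counts in starved control cells and 81231, 99988 and 95511 in starved Lap2-depleted cells (log2FC -0.78 ± 0.076, adjusted p = 4.3e-10). With serum the values were 154860.3, 173628 and 177913 in control and 122724, 117422 and 98218 in Lap2-depleted cells (log2FC -0.58 ± 0.076, adjusted p = 3.7e-07). The groups did not overlap in either condition. Col1a2 (chr6:4504814-4541544), the partner chain, had 203549.6, 198063 and 191643 normalized counts in starved control cells and 125128, 151958 and 147079 after Lap2 siRNA (log2FC -0.48 ± 0.067, adjusted p = 4.5e-07), and in 15% FBS it had 196693, 213548 and 218719.6 against 172159, 172128 and 150302 (log2FC -0.35 ± 0.067, adjusted p = 0.00017). Collagen I joins 2 chains from Col1a1 to 1 from Col1a2. The per-length ratio of Col1a1 to Col1a2 was 1.48 to 1.56 in starved control and 1.49 to 1.54 in stimulated control libraries. It was 1.23 to 1.25 in starved and 1.24 to 1.35 in stimulated Lap2-depleted libraries, below the range of the controls in both conditions. Its size rests on exon lengths joined over all annotated transcripts, 6563 bases for Col1a1 and 12426 for Col1a2. Col1a2 had the higher normalized counts, so the ratio can be compared between groups but not with the 2 to 1 of the protein. No test was made on this ratio.

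Collagen III, which forms thin fibrils together with collagen I, was also lower. Col3a1 (chr1:45311538-45349706) had 206852, 216957 and 219400.4 normalized counts in starved control cells and 63667, 69713 and 69408 in starved Lap2-depleted cells, a fall of 68.5% (log2FC -1.67 ± 0.071, adjusted p = 1.6e-18). Stimulated control cells had 193359.7, 203653 and 220856 and stimulated Lap2-depleted cells 123892, 116128 and 97159 (log2FC -0.87 ± 0.07, adjusted p = 1.4e-11). Every Lap2-depleted library was below every control library, with the stimulated ones between the starved ones and the controls.

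Of the minor fibril-forming chains, Col5a1 and Col5a2 encode collagen V, which nucleates fibrils, and Col11a1 encodes a chain of the related collagen XI. Col11a1 (chr3:114030540-114220718) had 914, 770.2 and 786 normalized counts in starved control cells and 229.5, 287 and 266 after Lap2 siRNA (log2FC -1.66 ± 0.096, adjusted p = 2.0e-15). In 15% FBS the values were 948, 986 and 966 and 239, 282 and 259.9 (log2FC -1.89 ± 0.096, adjusted p = 4.9e-16), the lowest log2FC among the 43 genes in that condition. Col11a1 stood at similar counts in starved and stimulated Lap2-depleted cells. Col5a1 fell by 40.3% in 0.3% FBS and by 44.7% in 15% FBS (log2FC -0.74 ± 0.064 and -0.85 ± 0.064), and Col5a2 by 42.9% and 31.5% (log2FC -0.81 ± 0.061 and -0.55 ± 0.061). Col12a1, a collagen that attaches to fibril surfaces, fell by 20.6% and 28%, and its call in 0.3% FBS was lost without control siRNA replicate 1 of that condition.

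Col16a1, another fibril-associated collagen, went the other way. It had 12349.7, 10839.8 and 11027 normalized counts in starved control cells and 15111, 16361 and 15541 in starved Lap2-depleted cells, with no overlap (log2FC 0.46 ± 0.061, adjusted p = 2.0e-07). After stimulation the counts were 12129, 11946 and 12263 and 12657, 12624 and 13285, and the difference did not pass the test (log2FC 0.09 ± 0.061, adjusted p = 0.36).

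All 3 collagen VI chains were measured at high levels. They assemble into beaded microfilaments around cells, and Col6a1 and Col6a2 lie 85161 bases apart on chromosome 10, with Col18a1 326009 bases beyond Col6a1. Col6a2 (chr10:76595762-76623630) had 63994, 64754 and 62395 normalized counts in starved control cells and 21467, 24289 and 24095 after Lap2 siRNA (log2FC -1.45 ± 0.066, adjusted p = 6.6e-18), and 63889, 67121 and 71902 against 31589, 29304 and 26856 in 15% FBS (log2FC -1.21 ± 0.066, adjusted p = 2.2e-15). Col6a1 had 79493, 79517 and 77183 normalized counts in starved control and 32049.5, 36806 and 35572 in starved Lap2-depleted cells (log2FC -1.18 ± 0.065, adjusted p = 7.5e-16), and its log2FC in 15% FBS was -0.94 ± 0.065. Col6a3, which encodes the longest of the 3 chains, behaved differently. It had 29756, 29386 and 29358 in starved control cells and 23109, 30409.9 and 28536 after Lap2 siRNA, which overlapped (log2FC -0.11 ± 0.07, adjusted p = 0.24), and it was called lower in 15% FBS, with 33865, 35711 and 36190.4 and 28023, 27063 and 27293 (log2FC -0.36 ± 0.07, adjusted p = 0.00016). The per-length ratio of Col6a3 to Col6a2 was accordingly 0.316 to 0.327 in starved control libraries and 0.749 to 0.871 in starved Lap2-depleted libraries, and 0.350 to 0.370 and 0.617 to 0.707 in 15% FBS. The ranges of the siRNA groups were apart in both conditions, and no test was made on this ratio.

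The network and basement membrane collagens split. Col18a1 (chr10:77052178-77166548), a collagen of basement membranes that carries endostatin, had 626, 704 and 697 normalized counts in starved control cells and 209, 227 and 227 after Lap2 siRNA (log2FC -1.61 ± 0.097, adjusted p = 4.8e-15). With serum the values were 644, 643 and 698 and 354, 329 and 289 (log2FC -1.03 ± 0.093, adjusted p = 2.1e-10). Col15a1, its closest relative, fell by 36.3% and 26.3% (adjusted p = 3.1e-08 and 5.2e-05). The chains of collagen IV, the sheet-forming collagen of basement membranes, did not follow. Col4a1 had 8677, 8747 and 8552 normalized counts in starved control cells and 8069.8, 9828 and 9455 after Lap2 siRNA (log2FC 0.07 ± 0.065, adjusted p = 0.41), and its difference in 15% FBS did not pass the test either (log2FC -0.17 ± 0.065, adjusted p = 0.055). Col4a2 was called higher in 0.3% FBS with overlapping groups, 7007, 6466 and 6287 against 6749, 8289 and 7864 (log2FC 0.21 ± 0.068, adjusted p = 0.012), and was not called in 15% FBS (log2FC -0.14 ± 0.068, adjusted p = 0.14). Col8a1, a short-chain network collagen, was higher in 0.3% FBS by a log2FC of 0.20 ± 0.074 (adjusted p = 0.036) and was not called in 15% FBS (adjusted p = 0.75). The calls of Col4a2 and Col8a1 were lost in 3 and 6 of the 20 other settings, among them the fit of only the 2 groups compared and single libraries left out (control siRNA replicate 3 in 0.3% FBS for both). Col4a1 and Col4a2 are transcribed in opposite directions from starts that overlap by 22 bases, and whether the counting used strand is not given in the sources used here.

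Laminins are the cross-shaped glycoproteins of basement membranes, which nidogen and perlecan connect to collagen IV. Lamb1 fell by 16.4% in 0.3% FBS and by 16.1% in 15% FBS (adjusted p = 0.0015 and 0.0031), the first of which lost its call with scaling to total counts, while Lamc1 was called in neither (log2FC 0.12 ± 0.073 and 0.02 ± 0.073). Hspg2, the gene of perlecan, had overlapping groups in 0.3% FBS with 16106, 13929 and 15458 against 10732, 14268 and 13924 normalized counts (log2FC -0.23 ± 0.077, adjusted p = 0.021) and was also called lower in 15% FBS (log2FC -0.47 ± 0.078, adjusted p = 1.7e-05), and the difference between these effects did not pass the test (adjusted p = 0.15). Its call in 0.3% FBS was lost without control siRNA replicate 1 or 3, or without Lap2 siRNA replicate 1, of that condition, and with scaling to total counts. Nid1 (chr13:13437602-13512275) changed in opposite directions. It had 22119, 20911 and 20094 normalized counts in starved control cells and 20177, 26225 and 25956 in starved Lap2-depleted cells (log2FC 0.20 ± 0.073, adjusted p = 0.033), where replicate 1 of the Lap2-depleted cells lay within the control range. In 15% FBS it had 27958, 29241 and 27539.8 in control and 21904, 20374 and 22510.5 in Lap2-depleted cells, apart from each other (log2FC -0.39 ± 0.073, adjusted p = 0.00012). The rise in 0.3% FBS lost its call in 5 of the 20 other settings, namely without control siRNA replicate 2 or 3 or Lap2 siRNA replicate 2 or 3 in 0.3% FBS and in the fit of only the 2 groups compared. The fall in 15% FBS was called in all 20.

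Of the 9 elastic fibre genes, 7 were called lower in 0.3% FBS and 7 in 15% FBS. Mfap5 (chr6:122505845-122529290), a microfibril-associated glycoprotein, had the lowest log2FC of all 43 genes in 0.3% FBS. It had 300.3, 420.2 and 376 normalized counts in starved control cells and 56.9, 34.3 and 57.7 after Lap2 siRNA, a fall of 86.3% (log2FC -2.87 ± 0.17, adjusted p = 3.0e-15). In 15% FBS it had 319, 266 and 288 and 211, 155 and 159 (log2FC -0.74 ± 0.14, adjusted p = 0.00019). Eln, which encodes elastin itself, had 1017, 1115 and 853 normalized counts in starved control and 280.0, 301 and 350.2 in starved Lap2-depleted cells (log2FC -1.69 ± 0.1, adjusted p = 8.8e-15), and 939.7, 1019 and 1111 against 724, 665 and 583 in 15% FBS (log2FC -0.64 ± 0.097, adjusted p = 5.0e-06). Neither gene's groups overlapped. Among the fibulins and their relatives, which link elastin to microfibrils, Efemp2 fell by 46.4% in 0.3% FBS and by 29.7% in 15% FBS, Fbln2 by 45.9% and 32.8%, and Fbln5 by 33.2% and 13.2%. The fall of Fbln5 in 15% FBS (adjusted p = 0.013) lost its call without replicate 3 of either siRNA in 15% FBS and with scaling to total counts. Fbn1, the gene of the microfibril protein fibrillin, fell by 25.4% and 26.4%, and Emilin1 by 16.1% and 19%, where the call of Emilin1 in 0.3% FBS was lost with scaling to total counts. Fbln1 had at most 31.6 and Mfap2 at most 6.2 normalized counts in any library, and neither was called in any of the 5 contrasts.

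The lysyl oxidases, which oxidize lysines so that collagen and elastin can be cross-linked, did not share a pattern. Lox had 33315, 38184 and 35708 normalized counts in starved control cells and 25362, 27173 and 28893 in starved Lap2-depleted cells, all lower (log2FC -0.40 ± 0.066, adjusted p = 8.9e-06). In 15% FBS the order was the reverse, with 40283, 40489.5 and 42148 in control and 48876, 49723 and 42691 in Lap2-depleted cells (log2FC 0.20 ± 0.066, adjusted p = 0.023), and this second call was lost without control siRNA replicate 1 or 2 or Lap2 siRNA replicate 1 or 2 in 15% FBS. Loxl1, the family member linked to elastin, fell in both conditions (log2FC -0.66 ± 0.061 and -0.27 ± 0.061). Loxl2 had at most 9.9 normalized counts in any library and was called in no contrast.

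Fibronectin and the matricellular proteins, which modulate how cells bind the matrix, held some of the largest and some of the opposite changes. Postn (chr3:54361109-54391037), the gene of periostin, had 60323, 71028 and 65544 normalized counts in starved control cells and 11958, 13372 and 13497 in starved Lap2-depleted cells, a fall of 80.3% (log2FC -2.34 ± 0.082, adjusted p = 8.4e-21). In 15% FBS it had 62325, 62957 and 66549.5 in control and 49977, 41534 and 36736 in Lap2-depleted cells (log2FC -0.58 ± 0.078, adjusted p = 6.5e-07). The starved Lap2-depleted libraries were far below all 9 others. Sparc, which encodes a collagen-binding glycoprotein, fell by 35.5% in 0.3% FBS and by 13.5% in 15% FBS, the second of which lost its call without replicate 3 of either siRNA in 15% FBS and with scaling to total counts. Tnn (tenascin N), at low counts, had 101, 93.6 and 96.0 normalized counts in starved control cells and 48.7, 21.9 and 45.3 after Lap2 siRNA (log2FC -1.31 ± 0.21, adjusted p = 7.3e-06), and 203, 171 and 278 against 193, 194 and 204 in 15% FBS, where the groups overlapped (log2FC -0.13 ± 0.16, adjusted p = 0.63). Tnc (tenascin C) was not called in 0.3% FBS (log2FC 0.13 ± 0.077) and was lower in 15% FBS (log2FC -0.23 ± 0.077, adjusted p = 0.03), a call lost without control siRNA replicate 2 or 3 or Lap2 siRNA replicate 1 or 2 in 15% FBS and with scaling to total counts.

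Fn1 (chr1:71585520-71653200) rose in starved cells. Starved control cells had 161856, 149432 and 145382 normalized counts and starved Lap2-depleted cells 163180.0, 218681 and 210202 (log2FC 0.37 ± 0.073, adjusted p = 9.2e-05), where replicate 1 of the Lap2-depleted cells lay just above the highest control. In 15% FBS it had 193502, 206852 and 204634 in control and 165873, 171354 and 178054 in Lap2-depleted cells, all lower (log2FC -0.23 ± 0.073, adjusted p = 0.018). The rise in 0.3% FBS was called in all 20 other settings, while the fall in 15% FBS was lost without control siRNA replicate 2 or 3, without Lap2 siRNA replicate 1 or 2, and with scaling to total counts.

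Among the small leucine-rich proteoglycans, 5 of 5 fell in 0.3% FBS. Fmod (chr1:134037254-134048277), the gene of fibromodulin, had 221, 303 and 236 normalized counts in starved control cells and 36.7, 78.0 and 42.2 after Lap2 siRNA (log2FC -2.29 ± 0.19, adjusted p = 8.0e-12), and 178, 223 and 198 against 162, 154 and 128 in 15% FBS, where the difference did not pass the test (log2FC -0.44 ± 0.17, adjusted p = 0.056). Dcn, the gene of decorin, had 26156, 30876 and 31382 normalized counts in starved control and 10811, 9872 and 10117 in starved Lap2-depleted cells (log2FC -1.52 ± 0.077, adjusted p = 7.3e-17), and 26275, 26502 and 30320.0 against 20426, 19515 and 16602 in 15% FBS (log2FC -0.56 ± 0.075, adjusted p = 7.3e-07). Lum, the gene of lumican and a neighbour of Dcn on chromosome 10, went from 5807, 6918 and 7189 to 2804, 2554 and 2482 in 0.3% FBS (log2FC -1.34 ± 0.081, adjusted p = 5.4e-15) and was lower by a log2FC of -0.40 ± 0.079 in 15% FBS. Bgn, the gene of biglycan and the highest of the group per length, fell by 37.1% and 30.8%. Ogn (osteoglycin) was the exception in stimulated cells. It had 820.4, 869 and 853 normalized counts in starved control cells and 544, 570.1 and 548 after Lap2 siRNA (log2FC -0.61 ± 0.083, adjusted p = 2.5e-07), but 724, 690.4 and 689 in stimulated control and 928, 1047 and 827 in stimulated Lap2-depleted cells (log2FC 0.41 ± 0.081, adjusted p = 0.00022), with no overlap either time and a call in all 20 other settings. Vcan, the gene of the large proteoglycan versican, was not called in 0.3% FBS (log2FC 0.05 ± 0.068) and was called lower in 15% FBS (log2FC -0.26 ± 0.068), a call lost with scaling to total counts.

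**Figure D3:**
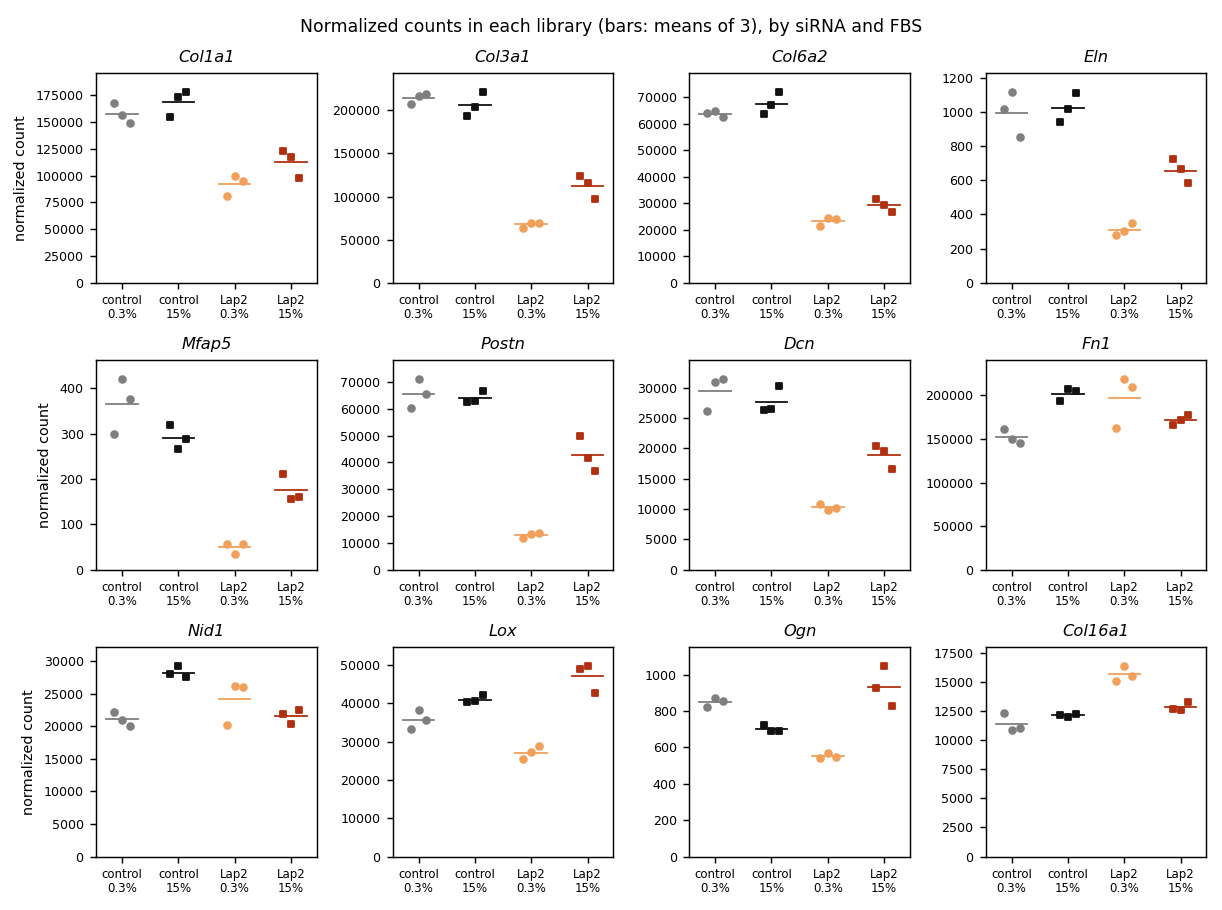
Normalized counts of 12 of the genes in each of the 12 libraries (points) with the mean of 3 (bars), on axes that start at 0, by siRNA and serum condition. Postn, Dcn, Eln and Mfap5 are lowest in starved Lap2-depleted cells, Fn1, Nid1 and Col16a1 are not, and the means of Lox and Ogn are highest in stimulated Lap2-depleted cells.

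The response to 45 min of serum was counted separately for each siRNA. With control siRNA, 12 of 43 were called higher and 1 lower (Ogn), beside 15.6% of all genes called higher and 13.9% lower. The higher genes were Tnn, Tnc, Lamc1, Nid1, Fn1, Col12a1, Col6a3, Col11a1, Col4a1, Col4a2, Vcan and Lox, with log2FC from 0.20 (Lox) to 1.16 (Tnn). With Lap2 siRNA, 25 were called higher and 2 lower (Col16a1 and Fn1), beside 18.3% of all genes called higher and 14.9% lower. Of these 25, 20 were not called with control siRNA, among them both collagen I chains, Col3a1, Eln, Postn, Dcn and Lum, 4 were called higher with both siRNAs (Lamc1, Lox, Tnc and Tnn), and Ogn was called lower with control siRNA. The shares of all genes with these joint patterns were not counted. The counts of called genes depended on the scaling. With scaling to total counts, 5 genes were called higher and 12 lower with control siRNA, and 13 higher and 11 lower with Lap2 siRNA, while the median log2FC over all genes shifted to -0.22 and -0.23. Relative to that shift the members' median was higher by 0.10 with control siRNA and by 0.32 with Lap2 siRNA, against 0.10 and 0.33 with the main scaling. As each library was left out, these values ran from 0.087 to 0.163 with control siRNA and from 0.215 to 0.385 with Lap2 siRNA. The lowest with Lap2 siRNA came without Lap2 siRNA replicate 1 in 0.3% FBS. The count of 2 lower genes with Lap2 siRNA became 7 without Lap2 siRNA replicate 1 in 0.3% FBS and 1 without Lap2 siRNA replicate 2 or 3 in 0.3% FBS or replicate 1 or 2 in 15% FBS. The count of 12 genes called higher with control siRNA became 17 without Lap2 siRNA replicate 1 in 0.3% FBS and 8 without control siRNA replicate 3 in 15% FBS.

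The difference between the 2 serum responses, tested as an interaction, was called for 23 of the 43 genes. It was positive for 17, beside 7.09% of all genes, and negative for 6, beside 6.51%. The same test asks whether the effect of Lap2 siRNA differed between the serum conditions. Tmpo itself had a log2FC to serum of -0.62 ± 0.081 with Lap2 siRNA (adjusted p = 1.9e-07) and a difference of -0.79 ± 0.11 (adjusted p = 3.0e-06). Between the starved and stimulated Lap2-depleted cells, serum and the depth of depletion therefore cannot be told apart. Mfap5 had a log2FC to serum of -0.33 ± 0.13 with control siRNA (adjusted p = 0.064) and of 1.80 ± 0.18 with Lap2 siRNA (adjusted p = 7.7e-10), a difference of 2.13 ± 0.23 (adjusted p = 2.2e-08). For Postn the log2FC to serum were -0.04 ± 0.078 and 1.72 ± 0.08, with a difference of 1.76 ± 0.11 (adjusted p = 4.3e-13). Both genes were higher in every stimulated than in every starved Lap2-depleted library, without reaching the lowest stimulated control library. The other positive differences were those of Fmod, Tnn, Eln, Ogn, Dcn, Lum, Col3a1, Lox, Col18a1, Sparc, Efemp2, Loxl1, Fbln5, Fbln2 and Col5a2, from 0.26 for Col5a2 to 1.85 for Fmod. The negative ones were those of Fn1, Nid1, Col16a1, Tnc, Col4a2 and Vcan, from -0.61 for Fn1 to -0.31 for Vcan. Fn1 rose with serum in control cells (log2FC 0.41 ± 0.073, adjusted p = 3.6e-05) and fell in Lap2-depleted cells (log2FC -0.20 ± 0.073, adjusted p = 0.033), a fall whose groups overlapped and whose call was lost without Lap2 siRNA replicate 2 or 3 in 0.3% FBS, without Lap2 siRNA replicate 1 or 2 in 15% FBS and in the fit of only the 2 groups compared. The collagen I and VI chains had differences that did not pass the test, of 0.19 ± 0.11 for Col1a1, 0.14 ± 0.095 for Col1a2, 0.23 ± 0.091 for Col6a1, 0.24 ± 0.092 for Col6a2 and -0.25 ± 0.098 for Col6a3. The count of 6 negative differences rose to 12 without Lap2 siRNA replicate 1 in 0.3% FBS, and the call of Col5a2 was lost in 10 of the 19 other settings in which the difference was fitted.

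**Figure D4:**
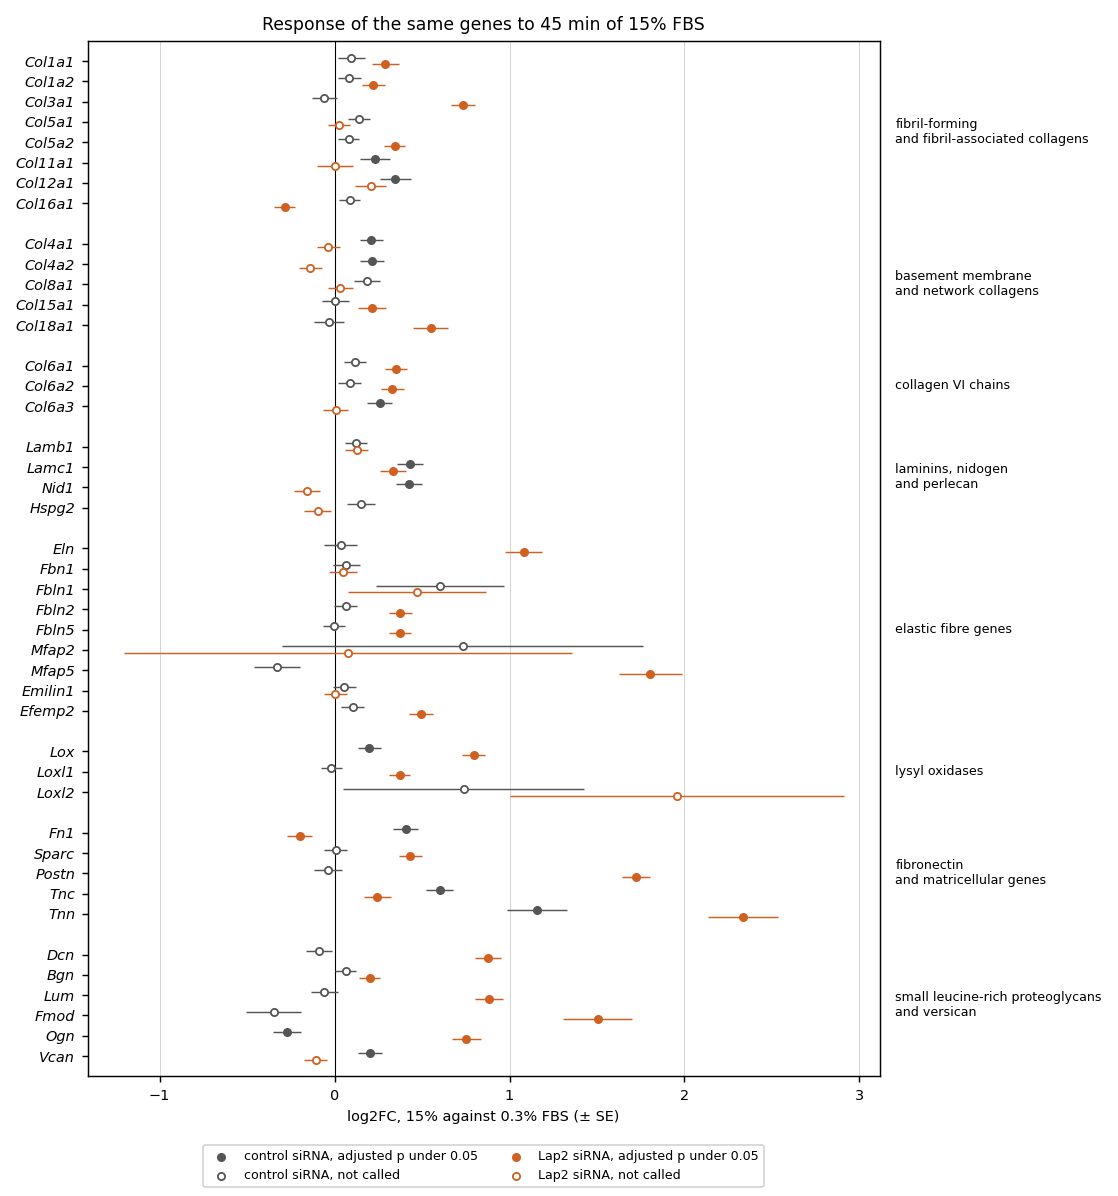
log2FC of 15% FBS against 0.3% FBS (± SE, from 3 libraries a group) for each of the 43 genes, with control siRNA (grey) and Lap2 siRNA (orange), filled where the adjusted p is under 0.05. The grey points lie between -0.35 (Fmod) and 1.16 (Tnn), and the filled orange points of Mfap5, Postn, Fmod and Tnn lie beyond 1.5.

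Other genes of collagen synthesis and matrix assembly were counted on lists that hold none of the 43 genes. Of 21 tested genes for collagen folding, modification and secretion, 13 fell and 1 rose in 0.3% FBS, and 7 fell and 1 rose in 15% FBS (median log2FC -0.20 and -0.12). The 3 largest changes were those of Creb3l1, a transcription factor for secretory genes (log2FC -1.42 ± 0.087, adjusted p = 8.8e-15), Sec23a, a coat protein of the vesicles that leave the endoplasmic reticulum (log2FC -1.30 ± 0.064, adjusted p = 4.7e-17), and Fkbp14, a prolyl isomerase of that compartment (log2FC -0.98 ± 0.078, adjusted p = 4.7e-12), all in 0.3% FBS. Of 10 genes for procollagen processing and fibril assembly, 4 fell and 2 rose in 0.3% FBS, and 7 fell and none rose in 15% FBS. Adamts2, which removes the amino-terminal propeptide, had 4829 ± 289 normalized counts in starved control and 2228 ± 196 in starved Lap2-depleted cells (mean ± SD, n = 3; log2FC -1.12 ± 0.075, adjusted p = 7.9e-14), while Mep1a and Tll1, also among its 3 largest changes, had means of at most 20.7 normalized counts in the groups of their contrasts.

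Of 21 other collagen chains tested, 7 fell and 3 rose in 0.3% FBS, and 6 fell and 3 rose in 15% FBS, with medians of 0.01 and -0.17. Col5a3, the third collagen V chain, went from 6006 ± 14.3 to 1074 ± 189 normalized counts in 0.3% FBS (log2FC -2.49 ± 0.092, adjusted p = 3.2e-20), and Col6a6 and Col23a1, at means of 19.9 and 20.8 in starved control cells, had log2FC of -4.16 ± 0.7 and -2.48 ± 0.51. Of 13 other basement membrane genes, 8 fell and 2 rose in 0.3% FBS, and 7 fell and 1 rose in 15% FBS, among them falls of Frem1 from 10.7 to 1.88 and of Lamc3 from 72.1 to 17.6 mean normalized counts in 0.3% FBS. Of 13 other elastic fibre genes, 10 fell in 0.3% FBS and 9 in 15% FBS and none was called higher. Mfap4, a microfibril protein, fell from 542 ± 47.9 to 38.5 ± 9.51 in 0.3% FBS (log2FC -3.83 ± 0.15, adjusted p = 4.3e-19), with Mmrn2 and Hmcn1 next at means of 10.1 and 41.2 in starved control cells.

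Of 23 other proteoglycan and glycoprotein genes, 14 fell and 3 rose in 0.3% FBS, and 8 fell and 3 rose in 15% FBS. Podn (podocan), a further leucine-rich repeat protein, fell from 269 ± 38.4 to 31.2 ± 9.71 normalized counts in 0.3% FBS (log2FC -3.12 ± 0.2, adjusted p = 1.9e-14). Vtn had a mean of 23.1 in starved control cells and 0 in starved Lap2-depleted cells, and Epyc went from 27.4 to 6.03. The receptors for collagen, fibronectin and laminin were mixed in starved cells, where 8 of 21 rose and 5 fell, and in 15% FBS 3 rose and 9 fell. Itgb3, the beta chain of an integrin that binds vitronectin and fibronectin, fell from 558 ± 16.6 to 181 ± 44.6 in 0.3% FBS (log2FC -1.64 ± 0.12, adjusted p = 3.8e-13), Sdc1 (syndecan 1) fell by 45.7%, and Itga2 rose from 2.52 to 14.6. Counts of genes called on each list are to be read beside the shares of all genes called given above.

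**Figure D5:**
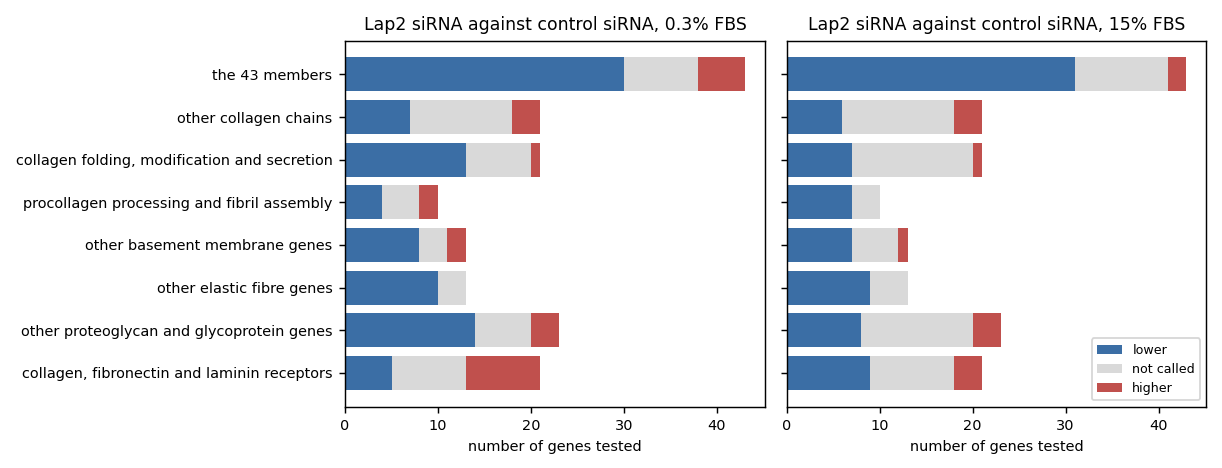
Number of tested genes called lower (blue), not called (grey) and called higher (red) with Lap2 siRNA against control siRNA, in 0.3% FBS (left) and 15% FBS (right), for the 43 genes and 7 lists of related genes outside them. The 43 genes show 30 lower and 5 higher in 0.3% FBS, and the receptors show 8 higher and 5 lower.

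A sequence feature that the choice of the 43 genes did not use was frequent among them. The miR-29 microRNAs are known regulators of collagen messages, and their mature sequences, from RefSeq (GRCm38.p6), are shown because their common seed (bases 2 to 8, in capitals) defines the site searched for. Mir29a and Mir29b-1 lie on chromosome 6 and Mir29b-2 and Mir29c on chromosome 1.
mmu-miR-29a-3p: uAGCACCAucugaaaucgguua
mmu-miR-29b-3p: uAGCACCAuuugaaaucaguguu
mmu-miR-29c-3p: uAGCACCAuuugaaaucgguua
The match of this seed, TGGTGCT on the sense strand, was present in the longest annotated 3′ UTR (GENCODE M21) of 19 of the 43 genes (44.2%), against 2114 of 13793 tested genes with such a UTR (15.3%). The median UTR length was 1016 bases for the 43 genes and 1146 bases for all. There were 0.543 matches per kilobase in the 43 genes and 0.112 in all, and 8 of the 43 had more than 1. The matches were in 12 of the 16 collagen chains, 4 of 9 elastic fibre genes, 2 of 3 lysyl oxidases and 1 of 4 laminin, nidogen and perlecan genes, and in none of the 5 fibronectin and matricellular or the 6 proteoglycan genes. Windows of 30 bases around a match are shown for some of the genes with counts given above, all of them called lower in both serum conditions. The match is in capitals and its first base is counted from the start of the UTR. Col16a1, Col4a1, Col4a2 and Col6a3 also held a match, were not called lower in 0.3% FBS and are not shown.
Col1a1, match at base 919 of 1423: ggtgggaaggaatttcTGGTGCTatagaag
Col3a1, match at base 235 of 959: cttcaaaatgtctcaaTGGTGCTataataa
Col6a2, match at base 841 of 1763: agagcacaaatgggggTGGTGCTatttgaa
Eln, match at base 38 of 1188: gcgacctcatcaacgtTGGTGCTactgctt
Mfap5, match at base 367 of 859: taatattttttttaaaTGGTGCTatgaatt
The median log2FC for Lap2 siRNA in 0.3% FBS was -0.74 among the 19 genes with a match and -0.62 among the 24 without, and over all tested genes it was -0.04 with and 0.01 without. In 15% FBS the median was -0.545 among the 19 and -0.395 among the 24, and over all tested genes -0.006 with and 0.02 without. The genes with the largest falls, Mfap5, Postn and Fmod, were on both sides. Mature microRNAs were not measured in these libraries. A match is a description of the letters and not evidence of a site in use.

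The seed of the antisense strand of the Lap2 siRNA was searched in the same way. Its match, GCTCTCT, was present in the 3′ UTRs of 6 of the 43 genes (14%) and of 16.2% of all tested genes. The median log2FC in 0.3% FBS was -0.71 among those 6 and -0.63 among the other 37, and over all tested genes it was -0.14 with and 0.02 without a match. The part of such matches in the results was not tested.

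Promoters (250 bases before to 50 after a start, RefSeq, GRCm38.p6) were on hand for 31 of the 43 genes, as 40 sequences. On either strand the GC box GGGCGG was in 25 of the 40 (62.5%), against 35.7% of all 32851 promoters, and the CCAAT box CCAAT in 15 (37.5%, against 37.4%). TATAAA was in 5 (12.5%, against 13.6%), the AP-1 site TGANTCA in 1 (2.5%, against 7.81%) and the TEAD site CATTCC in 7 (17.5%, against 14.7%). No promoter of the 40 held a CArG box, the serum response factor motif, which 1.63% of all promoters held, so these letters are not in these windows.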

How the data were processed

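RNA of NIH 3T3 cells was sequenced in 12 libraries, 3 for each siRNA and serum condition. The authors aligned reads with TopHat2 to mm10 and counted reads per gene with HTSeq, and the deposited values are these raw counts, without normalization. Tool versions, the annotation and the strand setting are not given in the sources used here. Depth was 18026298 to 26265253 counts per library, and no libraries held identical counts (0 pairs). Of the 49671 identifiers, 99.3% had a symbol.

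The quasi-likelihood test of edgeR 4.0.16 (R 4.3.3) was fitted once to all 12 libraries after TMM scaling. Genes needed more than 1 count in 3 or more libraries, which left 18668, and p-values were adjusted by Benjamini-Hochberg over all of them in each of 5 contrasts, with a threshold of 0.05. On simulated counts for Lap2 siRNA against control siRNA in 0.3% FBS (18668 genes), 85% of 200 genes changed by a log2FC of 1 were called, with 10 unchanged genes. The 200 were drawn from genes with a mean above 10 counts, so this share does not cover genes at lower counts. To give normalized counts, each library was rescaled by its TMM effective size. TPM was computed here with the union of exons in GENCODE M21.

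The 43 genes and all lists were chosen with earlier results of these data known. Full values were given, by rule, for the member with the largest log2FC in each role group, collagens I and III and fibronectin, and at most 3 genes were named per list outside the 43. Further members with full values, and genes named by position in the closing section, were chosen after their values were seen. Of the 43 genes, 11 share exon bases with a gene on the opposite strand (among them Fn1, Eln, Nid1 and Lox) and 2 with one on the same strand (Col3a1 and Loxl2), so their counts are less certain. The alternatives were DESeq2 1.42.0, other scalings (total counts, upper quartile), other filters, fits of only the 2 groups compared, a replicate block, a threshold of 0.01 and each library left out in turn.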

Additional observations from a re-analysis of the deposited data

Results flagged for a closer look

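For 23 of the 43 genes the response to serum differed between Lap2-depleted and control cells, by the edgeR quasi-likelihood test of the interaction at an adjusted p under 0.05. The values below are the log2 response with Lap2 siRNA minus that with control siRNA. The difference was positive for Mfap5 (2.13), Fmod (1.85), Postn (1.76), Tnn (1.18), Eln (1.05), Ogn (1.03), Dcn (0.97), Lum (0.94), Col3a1 (0.79), Lox (0.60), Col18a1 (0.58), Sparc (0.42), Efemp2 (0.39), Loxl1 (0.39), Fbln5 (0.38), Fbln2 (0.31) and Col5a2 (0.26). It was negative for Fn1 (-0.61), Nid1 (-0.58), Col16a1 (-0.37), Tnc (-0.36), Col4a2 (-0.35) and Vcan (-0.31). In Ogn the responses had opposite signs and both were called, -0.27 with control siRNA and 0.75 with Lap2 siRNA, and the same held for Fn1 with 0.41 and -0.20. The fall of Ogn with control siRNA lost its call without control siRNA replicate 2 in 0.3% FBS, and that of Fn1 with Lap2 siRNA in 5 of 20 other settings. Groups of 3 libraries were not searched for outlying samples.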

How the results depend on the processing

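Of 4233 values of single genes under the alternatives, 3998 kept their side of the threshold without a called value turning (131 of them, called in neither setting, changed sign), 127 lost their call, 97 gained one and 11 reversed. Reversed here means that the sign changed and that at least 1 of the 2 settings called the value, not that both did. None of the 1710 values of the Lap2 siRNA comparisons was among the reversed. All 11 came with scaling to total counts, where serum with control siRNA gave log2FC of -0.21 for Col15a1, -0.01 for Lox, -0.20 for Sparc and -0.005 for Vcan, and serum with Lap2 siRNA gave -0.009 for Col1a2, -0.21 for Col5a1, -0.20 for Col8a1, -0.018 for Col15a1, -0.23 for Col6a3, -0.23 for Emilin1 and -0.031 for Bgn. Of these, Col15a1 and Sparc with control siRNA and Col5a1, Col8a1, Col6a3 and Emilin1 with Lap2 siRNA were not called with the main scaling. Counts moved as follows. With scaling to total counts, 8 genes were higher and 27 lower with Lap2 siRNA in 0.3% FBS, 5 higher and 12 lower with serum and control siRNA, and 13 higher and 11 lower with serum and Lap2 siRNA. With upper-quartile normalization, 6 were higher and 3 lower with serum and control siRNA, and 6 lower with serum and Lap2 siRNA. In fits of only the 2 groups compared, 2 were higher with Lap2 siRNA in 0.3% FBS, 3 lower with serum and control siRNA and 1 lower with serum and Lap2 siRNA. With any count above 0 kept, 3 were lower with serum and control siRNA. At an adjusted p under 0.01, 2 and 1 were higher with Lap2 siRNA in 0.3% and 15% FBS, 8 were called with serum and control siRNA (7 higher), 1 was lower with serum and Lap2 siRNA and 3 had a negative difference between the responses. Leaving out each library gave 32 to 38 called genes (2 to 9 higher, 28 to 30 lower) for Lap2 siRNA in 0.3% FBS, 29 to 36 (1 to 2 higher, 27 to 34 lower) in 15% FBS, 9 to 19 (8 to 17 higher, 0 to 2 lower) for serum with control siRNA, 23 to 30 (22 to 25 higher, 1 to 7 lower) for serum with Lap2 siRNA, and 19 to 29 (15 to 19 positive, 4 to 12 negative) for the difference. With the replicate number as a replicate block, 2 genes were lower with serum and control siRNA. The replicate numbers used here follow the order of the library titles within each group. Same-numbered libraries correlated at -0.034 to 0.043 over 18 pairs, none above 0.1. These correlations showed no pairing by number, but with so few libraries in a group they cannot exclude one. At the counts of Fbln1, Mfap2 and Loxl2 a test that was not passed does not show that a difference is absent.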

Other observations

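Several of the genes lie next to relatives, whose values are given here as a description. Lum is 47338 bases from Dcn on chromosome 10, and Kera and Epyc, 2 further leucine-rich proteoglycan genes at low counts, follow on the same side. In starved cells Lap2 siRNA was accompanied by log2FC of -1.52 ± 0.077 for Dcn, -1.34 ± 0.081 for Lum, -1.97 ± 0.62 for Kera (adjusted p = 0.011) and -2.17 ± 0.44 for Epyc (adjusted p = 0.00015). On chromosome 13, Ogn has Omd, Aspn and Ecm2 as neighbours. In 0.3% FBS their log2FC were -0.61 ± 0.083 for Ogn, -0.80 ± 0.082 for Aspn (adjusted p = 1.0e-09), -0.63 ± 0.18 for Ecm2 (adjusted p = 0.0046) and -0.80 ± 0.38 for Omd, which did not pass the test (adjusted p = 0.099). In 15% FBS only Ogn of these 4 was called, at 0.41, and Aspn, Ecm2 and Omd had 0.20, 0.19 and 0.13 (adjusted p = 0.072, 0.5 and 0.86). Prelp, 115839 bases from Fmod on chromosome 1, fell in both conditions (log2FC -1.73 ± 0.11 and -0.76 ± 0.11).

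The collagen IV pair, which starts from opposite strands of one region, showed per-length ratios of Col4a1 to Col4a2 of 1.098 to 1.206 in starved control and 1.052 to 1.066 in starved Lap2-depleted libraries, and of 1.129 to 1.178 and 1.124 to 1.158 in 15% FBS. For the collagen V chains the ratio of Col5a1 to Col5a2 was 1.068 to 1.115 in starved control, 1.103 to 1.162 in stimulated control and 1.117 to 1.162 in starved Lap2-depleted libraries, and 0.890 to 0.941 in stimulated Lap2-depleted libraries. The ratio of Lamb1 to Lamc1 was 0.950 to 0.983 in starved control libraries, above the 0.713 to 0.811 of starved Lap2-depleted ones. In 15% FBS it was 0.761 to 0.798 in control libraries, within the range of the starved Lap2-depleted ones, and 0.578 to 0.68 in Lap2-depleted libraries. No test was made on these ratios.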
